A study of Mus musculus with 9 samples.

Results

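The 10 immediate-early genes Fos, Fosb, Jun, Junb, Jund, Egr1, Atf3, Ier2, Ier3 and Dusp1, which are also known to respond to tissue dissociation, were taken by gene name from a table of read counts over 46078 mouse genes. All 10 were present and all 10 were among the 15937 genes that passed the filter on low counts. The study compared 2 fractions of endothelial cells (ECs) sorted by flow cytometry from the bone marrow (BM) of normal wild type B6 mice with no treatment named in the labels, asking how their transcriptomes differ. All cells were gated as CD45-Ter119-CD31+, and the fractions were split by the surface protein Sca-1 into Sca-1+ and Sca-1-. The 4 Sca-1+ libraries are called here by the end numbers 7, 13, 15 and 19 of their labels, and the 5 Sca-1- libraries by 8, 10, 14, 16 and 22. Titles also hold the word wt (libraries 8, 15, 16 and 19), CD452 (13, 14 and 22) or its number without the letters (10), which the labels do not explain. Ages, and whether mice were pooled, are not given in the sources used here. The SMART-Seq v4 kit, which copies polyadenylated RNA into cDNA, was used with 2 ng of RNA per library.

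Immediate-early genes are switched on within minutes of a stimulus by transcription factors that are already present in the cell, such as SRF with its ternary complex partners and CREB, which MAP kinases activate. Their products are often transcription factors. Fos and Jun family proteins pair to form AP-1, which binds the promoters and enhancers of later genes, while phosphatases such as Dusp1 shut the kinases off again. In ECs the pathway responds to growth factors, inflammatory cytokines and shear stress, and the enzymes and handling used to free cells from tissue are known to induce it as well.

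The promoters of these genes are shown for the short word in DNA that CREB binds. Binding of CREB, and its part in the differences between the fractions, was not tested. RefSeq promoter windows (build GRCm38.p6) ran from 250 bases before to 50 bases after the start of the gene. Windows of 8 of the 10 genes were searched, and none of Egr1 or Ier2. The half-site of the cyclic AMP response element, TGACG on either strand, stood in 5 of these 8 windows (Atf3, Dusp1, Fos, Fosb and Junb). It stood in 20.8% of all 32851 windows used. The stretches up to 40 bases on each side of it, none past the start, are printed 5′ to 3′ on the strand of the gene, with the half-site in capitals. They lie at chr12:85473721-85473868 (Fos, + strand, bases -169 to -22 from the start), chr17:26508568-26508703 (Dusp1, - strand, -231 to -96), chr7:19310061-19310145 (Fosb, - strand, -100 to -16), chr8:84978810-84978894 (Junb, - strand, -146 to -62) and chr1:191183334-191183380 (Atf3, - strand, -47 to -1).
Fos: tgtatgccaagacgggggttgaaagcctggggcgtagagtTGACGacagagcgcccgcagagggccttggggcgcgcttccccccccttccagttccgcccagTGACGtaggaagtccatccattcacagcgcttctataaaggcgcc
Dusp1: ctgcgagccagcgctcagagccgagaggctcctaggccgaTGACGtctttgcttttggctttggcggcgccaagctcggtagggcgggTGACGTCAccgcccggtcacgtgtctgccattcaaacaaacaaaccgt
Fosb: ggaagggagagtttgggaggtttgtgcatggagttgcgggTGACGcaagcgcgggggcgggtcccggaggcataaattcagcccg
Junb: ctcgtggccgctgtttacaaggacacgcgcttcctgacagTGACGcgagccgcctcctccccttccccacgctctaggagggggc
Atf3: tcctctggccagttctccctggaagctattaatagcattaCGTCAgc
In the Dusp1 stretch the second run of capitals is the full palindrome TGACGTCA, made of overlapping half-sites on both strands, at bases -143 to -136. It stood in 1 of the 8 windows and in 1.79% of all windows. The Fos stretch also holds TATAAA at bases -33 to -28, a word found in 2 of the 8 windows (Fos and Junb) and in 13.6% of all. In the Junb window TATAAA lies at bases 1 to 6, past the start and outside the printed stretch. The AP-1 word TGANTCA and the CArG box bound by SRF were in 0 of the 8 windows, against 7.81% and 1.63% of all. GGGCGG, the GC box, was in 6 of the 8 and in 35.7% of all. These are matches of letters in short windows that reach 250 bases upstream. Sites farther out, and those of Egr1 and Ier2, were not searched. The counts out of 8, among them the 0 for the CArG box, therefore say nothing about Egr1 and Ier2. The RefSeq start of Jund lies 1210 bases upstream of the start of the counted GENCODE gene, and those of Atf3 and Dusp1 lie 34.7 kb and 53.7 kb inside the counted genes, so the stretches of Atf3 and Dusp1 are not at the outermost annotated start.

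The libraries held between 21581653 and 25959818 counts, and 3 counts, the smallest level taken as measured, were 0.0996 to 0.209 CPM (counts scaled to a common library size with edgeR's TMM factors). The labels were checked against marker genes. Ly6a, which encodes Sca-1, lay between 874 and 1306 CPM in the Sca-1+ libraries and between 0.240 and 1.49 CPM in the Sca-1- libraries. The 15 general endothelial markers, among them Cdh5 and Kdr, made up 1.38% to 1.87% of all counts in Sca-1+ and 0.0199% to 0.0939% in Sca-1- libraries, and 15 of 15 were higher in Sca-1+. The 15 megakaryocyte and platelet markers, among them Pf4 and Itga2b, made up 0.00522% to 0.0117% in Sca-1+ and 3.003% to 6.31% in Sca-1- libraries, and 15 of 15 were lower in Sca-1+. Of the general leukocyte markers 8 of 10, and of the erythroid markers 7 of 10, were also lower in Sca-1+. Of the sinusoidal endothelial markers 4 of 5 were higher and 1 lower, of the stromal and smooth muscle markers 4 of 11 were higher and 2 lower (together 0.0773% to 0.321% of all counts in Sca-1+ and 0.328% to 2.81% in Sca-1- libraries), while 2 of 9 neutrophil markers and 3 of 6 markers of B and plasma cells tested were lower. For reference, TMM scaling put 21.4% of the 15937 filtered genes lower in Sca-1+ and 23.3% higher. The lower shares of neutrophil (22.2%), sinusoidal (20%) and stromal and smooth muscle markers (18.2%) lay near the first of these rates. By their general endothelial and their megakaryocyte and platelet markers, the Sca-1- libraries therefore go against the endothelial label. Fewer endothelial cells cannot be told apart from less endothelial RNA per cell in these libraries. The part of these other cells in the results that follow was not tested.

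All 10 immediate-early genes were higher in the Sca-1+ than in the Sca-1- libraries with TMM scaling, by 2.73-fold (Jund) to 10.1-fold (Dusp1), and all 10 were lower when the libraries were instead scaled to the 15 general endothelial genes, where 90.6% of all genes tested were called lower and 1.06% higher. With TMM the call (adjusted p under 0.05, edgeR's quasi-likelihood test) was made for 10 of 10 genes in this direction and for 23.3% of all genes tested, with 0 of 10 lower against 21.4% of all. The values of the fractions did not overlap for 10 of 10 genes, and did not overlap in this direction for 24.8% of all genes. The median log2 fold change of the 10 was 2.91, beside 0.074 for all genes tested. Together the 10 genes made up 2.39% to 3.79% of all counts in the Sca-1+ libraries and 0.250% to 0.485% in the Sca-1- libraries. Among the libraries titled wt (2 against 2), the log2 differences were 1.92 to 3.75. Among those titled CD452 with or without its letters (1 against 3), they were 1.17 to 3.45. This split was made after the data were seen, and non-overlap within it follows from that over all libraries. For 0 lower calls, the count at an unadjusted p under 0.05 was also 0 in edgeR, DESeq2 and limma voom.

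**Figure D1:**
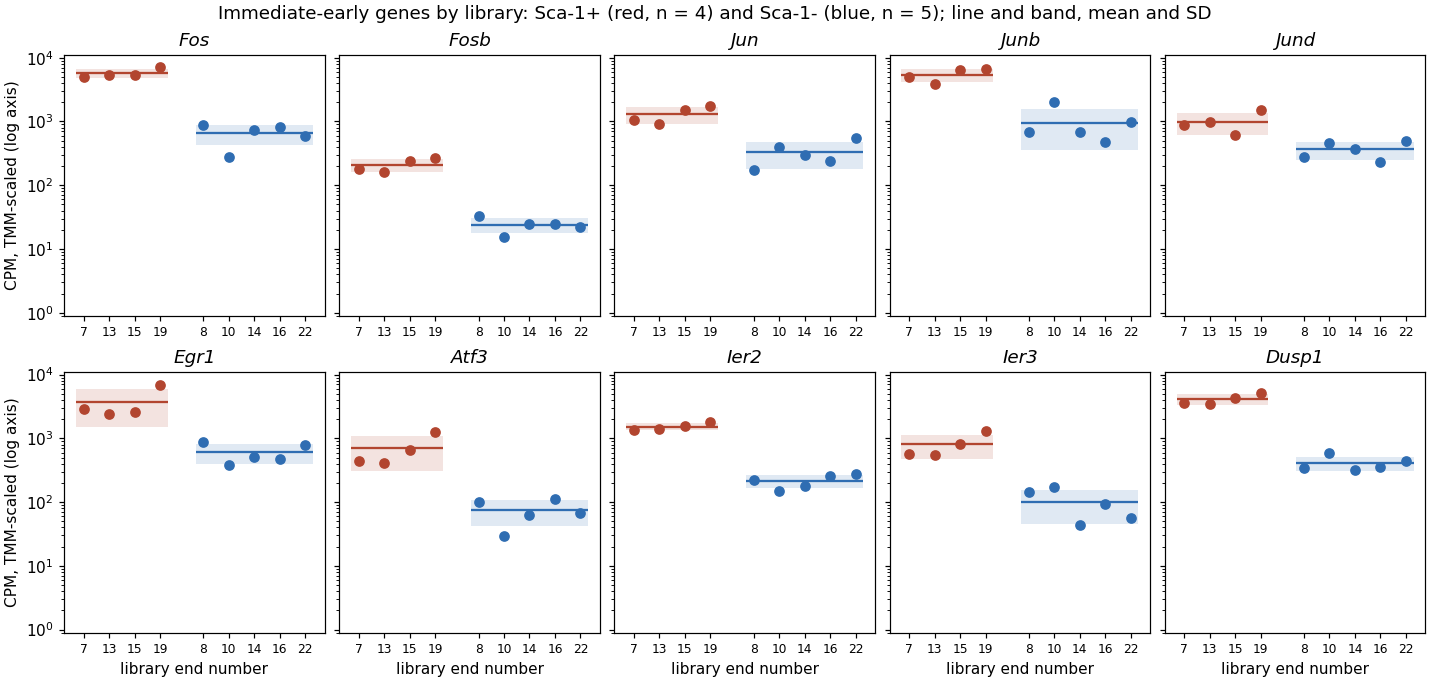
CPM of each of the 10 genes in each library, on a log axis, for Sca-1+ (red, n = 4) and Sca-1- (blue, n = 5); the line is the mean and the band 1 SD. With this TMM scaling the lowest Sca-1+ value lies above the highest Sca-1- value for every gene, from 1.23 times for Jund to 5.98 times for Dusp1; scaled to general endothelial genes the fold changes turn negative.

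Fos, the Fos family partner in AP-1 that is best known for its brief induction, lies on chromosome 12 (85473890 to 85477273, + strand, GRCm38, 4 exons). It stood at 4952, 5430, 5365 and 7216 CPM in Sca-1+ libraries 7, 13, 15 and 19, and at 883, 282, 725, 809 and 602 CPM in Sca-1- libraries 8, 10, 14, 16 and 22. Sca-1- library 10 was the low one, and every Sca-1+ library lay above every Sca-1- library. The log2 fold change was 3.12 (SE 0.37, adjusted p = 0.00014), and 1305 of the genes tested had a log2 fold change at least as large. Per length of transcript, Fos stood at 2441 ± 428 RPKM (SD, n = 4) in Sca-1+ and 281 ± 100 RPKM (SD, n = 5) in Sca-1- libraries, and ranked 5th to 8th by RPKM among all genes in Sca-1+ libraries but 91st to 633rd in Sca-1- libraries.

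Fosb, a second Fos family subunit (chromosome 7, 19302696 to 19310051, - strand), was far lower in level. Its values were 179, 164, 236 and 266 CPM in Sca-1+ libraries 7, 13, 15 and 19 and 33.1, 15.5, 24.6, 24.4 and 21.7 CPM in Sca-1- libraries 8, 10, 14, 16 and 22. Library 10 was again the lowest. Its log2 fold change was 3.14 (SE 0.26, adjusted p = 2.6e-05). At 33.8 ± 7.69 RPKM in Sca-1+ and 3.82 ± 1.01 RPKM in Sca-1- libraries it was the lowest of the 10 genes per length in both fractions.

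Jun encodes the classical partner of Fos (chromosome 4, 95049034 to 95052222, - strand, 1 exon). It measured 1038, 915, 1490 and 1722 CPM in Sca-1+ libraries 7, 13, 15 and 19 and 171, 398, 293, 237 and 557 CPM in Sca-1- libraries 8, 10, 14, 16 and 22. The fractions came closer here than for Fos, the lowest Sca-1+ value being 1.64 times the highest Sca-1- value, in library 22. The log2 fold change was 1.96 (SE 0.37, adjusted p = 0.0018).

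Junb, which encodes a Jun family protein with weaker activating activity on many targets (chromosome 8, 84974484 to 84978718, - strand, 3 exons), matched Fos in level. It stood at 4971, 3819, 6349 and 6666 CPM in Sca-1+ libraries 7, 13, 15 and 19 and at 674, 1986, 676, 475 and 965 CPM in Sca-1- libraries 8, 10, 14, 16 and 22. Library 10, the lowest of its fraction for Fos, was the highest for Junb. Its log2 fold change was 2.51 (SE 0.45, adjusted p = 0.0013), and 2.91 without library 10. Junb ranked 5th to 11th by RPKM in the Sca-1+ libraries and 72nd to 232nd in the Sca-1- libraries.

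Jund, whose protein is the Jun family member usually present in resting cells (chromosome 8, 70698949 to 70700616, + strand, 1 exon), had the smallest difference of the 10. Its values were 891, 986, 605 and 1516 CPM in Sca-1+ libraries 7, 13, 15 and 19 and 274, 460, 370, 233 and 490 CPM in Sca-1- libraries 8, 10, 14, 16 and 22. Libraries 15 and 22 nearly met, at a ratio of 1.23. The log2 fold change was 1.45 (SE 0.33, adjusted p = 0.0051), at percentile 79.7 of all genes tested.

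The Jund value is uncertain, since 877 of its 1668 exonic bases (52.6%) are shared with Gm11175 on the opposite strand and the use of strand in counting is not given in the sources used here. The same holds to a smaller extent for Junb (7.52% shared with Prdx2), Jun (7.28% with Junos) and Dusp1 (0.332% with Ergic1).

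The make-up of the AP-1 transcripts was compared as each gene's share of the summed RPKM of the 5 Fos and Jun family genes, a measure that does not depend on the scaling of the libraries. Jund took 10.2% ± 2.8 (SD, n = 4) of this sum in Sca-1+ libraries, from 6.14% to 12.2%. It took 21.3% ± 3.4 (SD, n = 5) in Sca-1- libraries, from 18.2% to 25.6%, so the fractions did not overlap. All these shares carry the uncertainty of the Jund value, as 52.6% of its exonic bases are shared with Gm11175. Fos took 42.0% ± 3.8 and 30.3% ± 14.9, and Junb 40.4% ± 5.3 and 38.1% ± 13.96, and for both the fractions overlapped. Jun (6.84% and 9.98%) and Fosb (0.576% and 0.403%) overlapped as well.

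The ratio of Fos family to Jun family RPKM was 0.707, 0.920, 0.646 and 0.716 in Sca-1+ libraries 7, 13, 15 and 19. It was 0.745, 0.0968, 0.514, 0.827 and 0.292 in Sca-1- libraries 8, 10, 14, 16 and 22. The Jun family sum includes Jund, whose value is uncertain. Sca-1- libraries 8 and 16 lay inside the Sca-1+ range and libraries 10, 14 and 22 below it, libraries 10 and 22 the farthest. Library 10 also had the smallest share of general endothelial counts (0.0199%) and the largest share of megakaryocyte and platelet counts (6.31%), and library 22 had 0.0855% and 4.10%, and the part of these cells in the ratio was not tested.

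**Figure D2:**
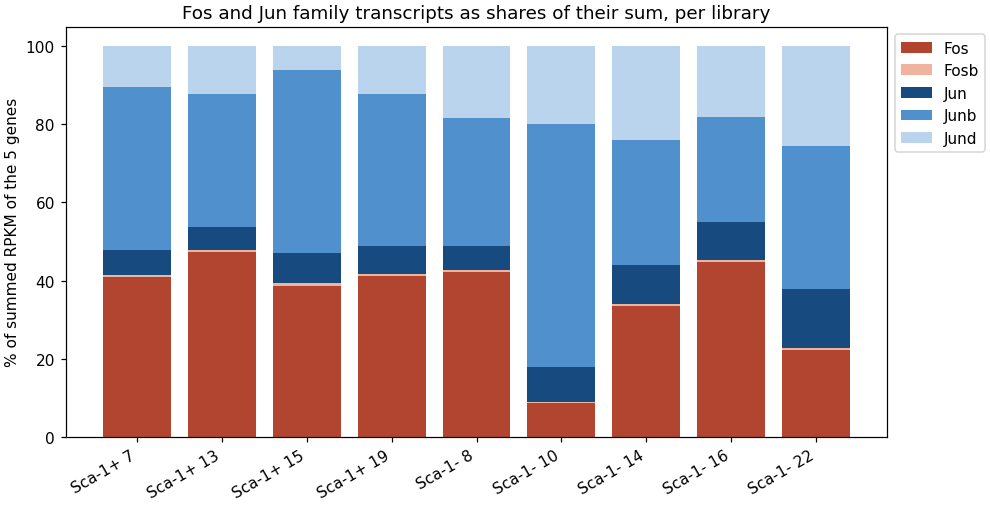
Shares of Fos, Fosb, Jun, Junb and Jund in the sum of their RPKM (y axis, percent) in each library (x axis); the bars sum to 100 by construction. Jund takes 6.14% to 12.2% in the Sca-1+ libraries and 18.2% to 25.6% in the Sca-1- libraries. Its value is uncertain, as 52.6% of its exonic bases are shared with Gm11175. Sca-1- library 10 has a Fos share of 8.64% and a Junb share of 62.3%.

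Egr1 encodes a zinc finger transcription factor that responds to growth factors and, in ECs, to shear stress. It measured 2844, 2414, 2564 and 6911 CPM in Sca-1+ libraries 7, 13, 15 and 19 and 877, 389, 515, 478 and 780 CPM in Sca-1- libraries 8, 10, 14, 16 and 22. Library 19 stood far above the other Sca-1+ libraries, which lay close together. Its log2 fold change was 2.60 (SE 0.42, adjusted p = 0.00073), and 2.11 (adjusted p = 0.0014) without library 19.

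Atf3 encodes a stress-induced bZIP factor that can pair with Jun proteins and often represses its targets (chromosome 1, 191170296 to 191218039, - strand, 5 exons). It stood at 445, 416, 666 and 1253 CPM in Sca-1+ libraries 7, 13, 15 and 19 and at 102, 29.0, 63.3, 110 and 67.9 CPM in Sca-1- libraries 8, 10, 14, 16 and 22. Library 19 was again the highest and library 10 the lowest. The log2 fold change was 3.22 (SE 0.46, adjusted p = 0.00038), and 2.78 without library 19.

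Ier2, which encodes a small nuclear protein of the immediate-early response (chromosome 8, 84661331 to 84662852, - strand, 1 exon), had the tightest Sca-1+ values of the 10. They were 1359, 1417, 1555 and 1807 CPM in libraries 7, 13, 15 and 19, a coefficient of variation of 12.99%, against 222, 148, 182, 259 and 275 CPM in Sca-1- libraries 8, 10, 14, 16 and 22. Its log2 fold change was 2.82 (SE 0.26, adjusted p = 4e-05).

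Ier3, a stress-inducible regulator of cell survival (chromosome 17, 35821684 to 35822923, + strand, 2 exons), varied more. It stood at 578, 550, 816 and 1286 CPM in Sca-1+ libraries 7, 13, 15 and 19 and at 142, 170, 43.5, 92.4 and 55.7 CPM in Sca-1- libraries 8, 10, 14, 16 and 22, with libraries 8 and 10 the high ones. The log2 fold change was 3.001 (SE 0.46, adjusted p = 0.00055).

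Dusp1 encodes the nuclear phosphatase that inactivates p38, JNK and ERK kinases and so ends the signal that induces these genes (chromosome 17, 26505590 to 26562128, - strand, 6 exons). It measured 3606, 3475, 4278 and 5214 CPM in Sca-1+ libraries 7, 13, 15 and 19 and 347, 581, 320, 357 and 447 CPM in Sca-1- libraries 8, 10, 14, 16 and 22. The lowest Sca-1+ value was 5.98 times the highest Sca-1- value, that of library 10. Its log2 fold change was 3.34 (SE 0.30, adjusted p = 3.5e-05), the largest of the 10 and at percentile 92.7 of all genes tested.

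The direction of all these differences depends on what the libraries are scaled to. With DESeq2 size factors, upper-quartile factors or library size only, the 10 genes stayed higher in Sca-1+ libraries. With the libraries scaled to the 15 general endothelial genes, 10 of 10 were lower, by log2 fold changes from -1.49 (Atf3) to -3.59 (Jund), with adjusted p from 0.00034 to 0.019. That scaling moved the median log2 fold change of all genes tested to -4.84 and called 14436 of them lower and 169 higher, so relative to all genes the 10 still stood 2.73 above the median, against 2.84 with TMM.

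The levels behind that scaling are given here as values, not as a further test. The log2 level of Fos over the mean log2 CPM of the endothelial genes was 3.25 to 3.90 in Sca-1+ libraries and 4.41 to 5.53 in Sca-1- libraries. On this measure, which repeats the scaling gene by gene, all 10 means were lower in Sca-1+ libraries, with differences from -3.22 (Jund) to -1.30 (Dusp1). Only Atf3 and Ier3 overlapped between the fractions. Of all genes tested, 90.6% were called lower and 1.06% higher under that scaling, and their overlap on this measure was not examined. The Sca-1- libraries hold markers of other cell types, and the share of each cell type in these levels was not tested.

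**Figure D3:**
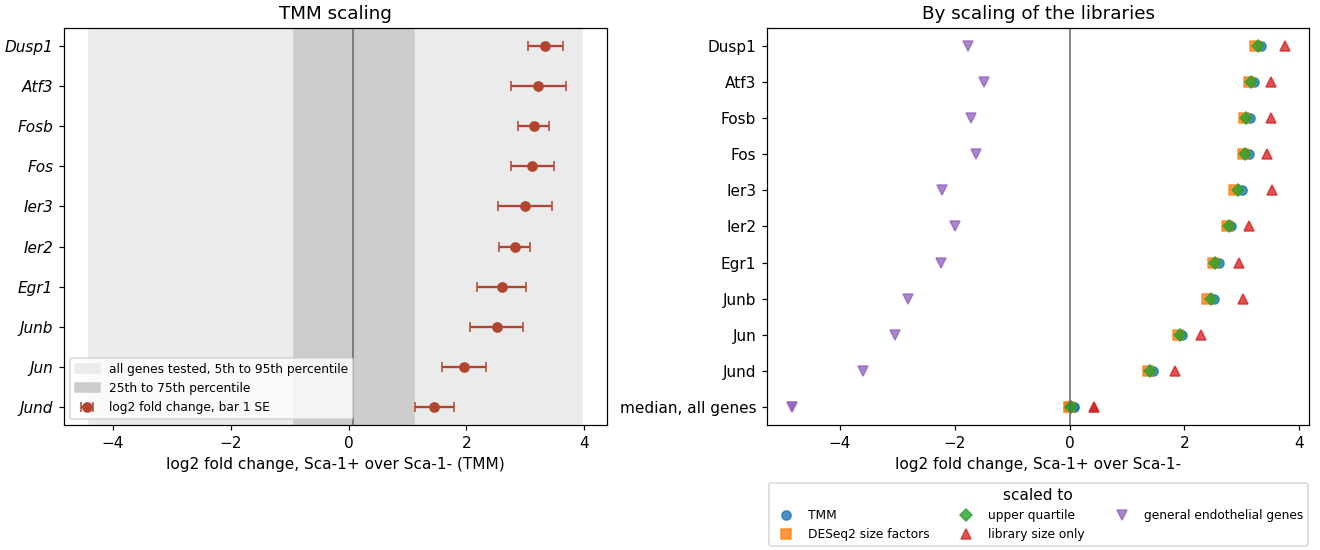
Log2 fold changes of the 10 genes (Sca-1+ over Sca-1-): left, with TMM scaling and bars of 1 SE over the spread of all genes tested (grey bands); right, under 5 scalings, with the median of all genes in the lowest row. With TMM the genes lie between 1.45 and 3.34, and scaled to general endothelial genes between -3.59 and -1.49, where the median of all genes is -4.84.

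In the Sca-1+ fraction the 10 genes mostly ranked the libraries alike, and in the Sca-1- fraction they did not. Sca-1+ library 19 was the highest of its fraction for 10 of 10 genes and library 13 the lowest for 7. These ranks were not counted over all genes, so it cannot be told whether they are particular to the 10 genes. Library 19 also had the largest shares of B and plasma cell markers (0.229% of counts, against at most 0.000427% in the other Sca-1+ libraries) and of neutrophil markers (0.0871% against at most 0.00724%), and the smallest share of sinusoidal endothelial markers (0.0351%). The part of these cells in its high values was not tested. Without library 19, all 10 genes kept an adjusted p under 0.05.

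In the Sca-1- fraction library 10 was the highest for Junb, Ier3 and Dusp1 and the lowest for Fos, Fosb, Egr1, Atf3 and Ier2. Over the 9 libraries, deviations from the fraction means of log2 CPM correlated with a Pearson r of 0.90 between Fosb and Atf3, 0.89 between Junb and Dusp1 and 0.88 between Fos and Atf3, but -0.78 between Fos and Junb. Of the 45 pairs 26 were positive, with a median r of 0.17. The points share their libraries and scaling factors, so these values are a description.

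**Figure D4:**
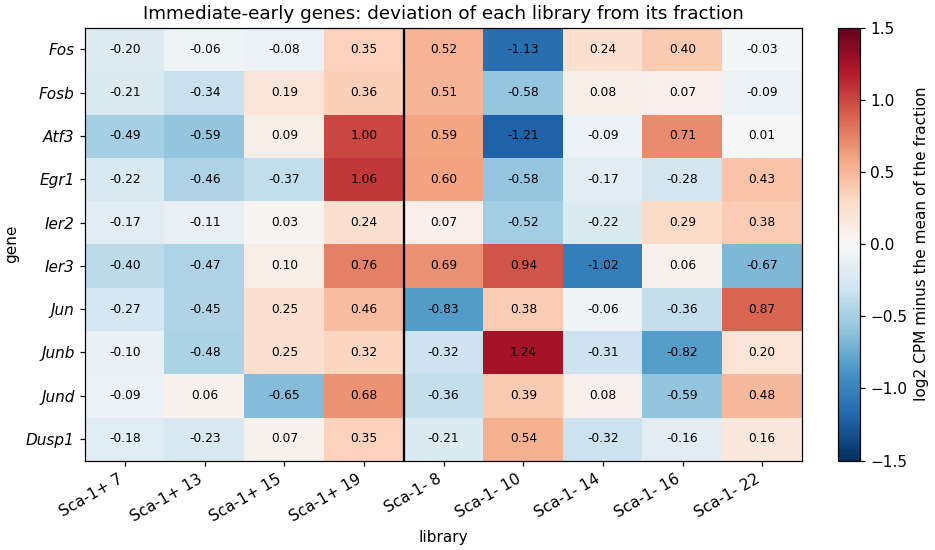
Log2 CPM of each gene (rows) in each library (columns) minus the mean of its fraction; red is above and blue below the mean. Sca-1+ library 19 is above the mean for all 10 genes, and Sca-1- library 10 is below it for Fos (-1.13) and Atf3 (-1.21) and above it for Junb (1.24).

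The genes whose deviations ran most like the mean of the 10, over 9 libraries and among 9857 genes with an average log2 CPM of at least 3, were Dkk1 (r = 0.94), Polr2a (0.92), Metap1 (0.92), Gabpa (0.91) and A830080D01Rik (0.90). Dkk1 itself was lower in Sca-1+ libraries (log2 fold change -5.10, adjusted p = 0.013), and Polr2a, the largest subunit of RNA polymerase II, was at 0.60 (adjusted p = 0.14). The 51 other immediate-early factors and effectors had a median r of 0.39, beside 0.02 for all candidates.

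Other genes of the pathway were taken from lists, and with TMM most of the listed immediate-early genes were also higher in Sca-1+ libraries, whereas scaled to the general endothelial genes 0 of any of these lists was higher (1.06% of all genes were, and 90.6% lower). The counts of each list are read against the 23.3% of all genes called higher and the 21.4% called lower with TMM. Of 19 other immediate-early transcription factors tested, 14 were higher and 1 lower, with a median log2 fold change of 2.13. Klf4, an endothelial zinc finger factor, stood at 3.69, Id1, an inhibitor of bHLH factors, at 4.68 and Irf1, an interferon-response factor, at 3.997 (adjusted p from 8.5e-05 to 0.00044). The 1 lower gene was Npas4, known as a neuronal activity factor. It measured 177, 114, 37.7, 119 and 21.1 CPM in Sca-1- libraries 8, 10, 14, 16 and 22 and no more than 1 count in any Sca-1+ library, and so was at least 884-fold lower there against the floor of 3 counts per library.

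Of 35 other immediate-early effectors, 24 were higher and 1 lower with TMM (28 of 35 lower and 0 higher with endothelial scaling), and their median log2 fold change was 1.88. The polo-like kinases Plk2 (5.01) and Plk3 (4.43), the NF-kappa-B regulator Nfkbiz (4.38) and Ier5l (5.19) had the largest values under the naming rule. Plk2 rose from 83.4 ± 42.9 CPM (SD, n = 5) in Sca-1- to 2686 ± 210 CPM (SD, n = 4) in Sca-1+ libraries, without overlap.

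The other AP-1 and bZIP genes were more mixed. Of 17 tested, 8 were higher and 3 lower with TMM, with a median of 1.15 (0 higher and 14 lower with endothelial scaling). The Fos family genes Fosl1 and Fosl2 stood at 4.90 and 3.69 and Mafg, a small Maf partner of megakaryocyte factors, at -3.01.

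The regulators around the pathway split in both directions. Of 8 other MAP kinase phosphatases, 5 were higher and 2 lower with TMM, with a median of 2.13 (0 higher and 8 lower with endothelial scaling). Dusp6, the cytoplasmic ERK phosphatase, stood at 2.74 and Dusp8 at 2.97 (2.27 without Sca-1+ library 19), while Dusp10 and Dusp16 stood at -4.26 and -3.64.

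Of 35 upstream kinases and SRF, CREB and Nab factors, 9 were higher and 8 lower, near the 23.3% and 21.4% of all genes, with a median of -0.06 (0 higher and 35 lower with endothelial scaling). Elk3, a ternary complex factor, stood at 2.98 and the p38 kinase Mapk11 at 3.38, while the p38 kinase Mapk14 stood at -3.12 and Mkl1, an SRF coactivator, at -3.63. The Mapk14 values were 41.4 to 62.3 CPM in Sca-1+ and 254 to 798 CPM in Sca-1- libraries.

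Later genes that AP-1 and Egr1 are known to induce were higher in 11 of 17 cases and lower in 1 with TMM, with a median of 2.27 (0 higher and 8 lower with endothelial scaling). The adhesion molecule Icam1 (5.13), the chemokine Cxcl1 (5.36) and the growth factor Hbegf (4.999, and 5.60 without Sca-1- library 16) were higher. Thbs1, which is stored in platelet granules, stood at -6.19, and at -6.83 without Sca-1+ library 19.

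Stress genes outside the AP-1 pathway were set beside these. Of 14 heat shock genes, 9 were higher and 2 lower with TMM, with a median of 1.48 (0 higher and 11 lower with endothelial scaling). Hspa1a stood at 170, 337, 497 and 1419 CPM in Sca-1+ libraries 7, 13, 15 and 19 and at 14.1, 9.15, 20.7, 24.8 and 62.3 CPM in Sca-1- libraries 8, 10, 14, 16 and 22. Library 19 was the high one, and the log2 fold change of 4.53 was 3.68 without it and 5.13 without Sca-1- library 22. Hspa1b, a near-identical copy whose reads cannot be safely told apart, moved likewise from 3.85 to 3.05 and 4.48. The small heat shock gene Hspb1 stood at 4.76 and the co-chaperone Dnajb1 at 2.32.

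The list of 10 integrated stress response genes also held genes of endoplasmic reticulum stress, among them Hspa5 and Xbp1. Of the 10, 5 were higher and 3 lower (21.4% of all genes were lower), with a median of 0.999 (0 higher and 10 lower with endothelial scaling). The chaperone Hspa5 (1.501), Xbp1 (1.54) and Trib3 (1.63) were higher with TMM, and Ddit3 was at -3.02. Values of Fosl1, Mafg, Irf1, Plk3, Dusp8, Elk3, Mkl1, Hspa1a, Ddit3, Icam1 and Thbs1 are uncertain because their exons overlap those of another gene.

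**Figure D5:**
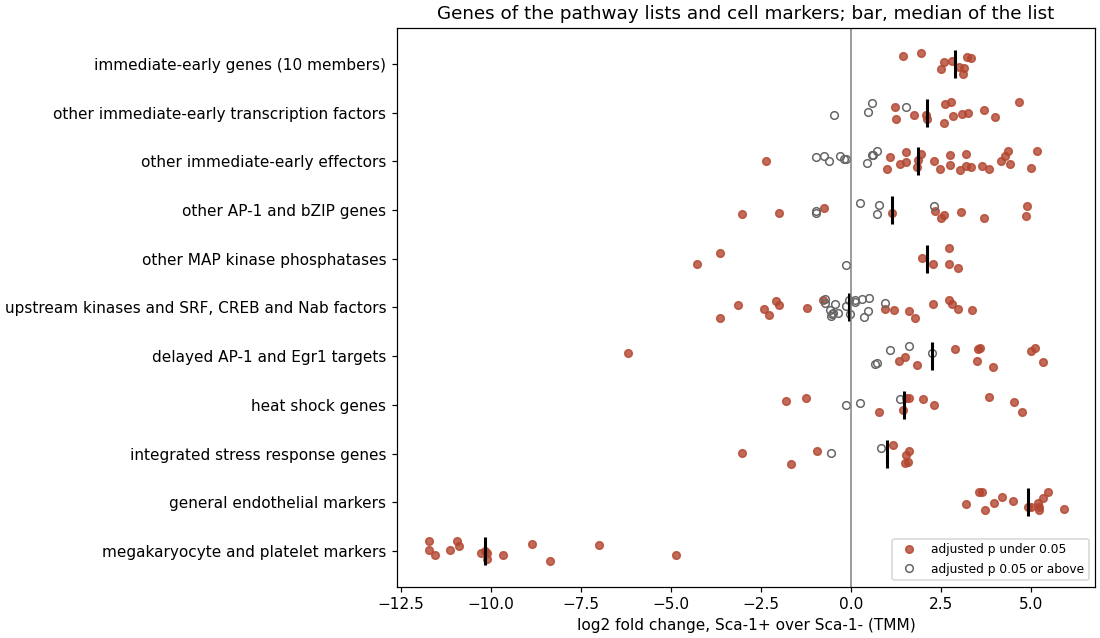
Log2 fold change with TMM (x axis, Sca-1+ over Sca-1-) of each gene in the pathway lists and in the endothelial and megakaryocyte marker lists; filled points passed the test and black bars are list medians. The 10 immediate-early genes have a median of 2.91 and the upstream kinases and factors -0.06; Npas4 is not drawn, and no gene of the pathway lists is called higher when scaled to general endothelial genes.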

How the data were processed

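RNA-seq was analysed in 9 libraries from sorted BM ECs, 4 Sca-1+ and 5 Sca-1-, grouped by the deposited labels. The authors deposited whole-number read counts per gene, not normalized. The submitters' processing notes name STAR, featureCounts and mm10, without versions. The use of strand and the annotation release are not given in the sources used here, so overlapping genes were reported as uncertain. Every sample column was used. The kit adds no molecular identifiers, so floors cover the error of counting alone.

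Counts were analysed with edgeR 4.0.16 in R 4.3.3. The filter was filterByExpr (minimum count 10, minimum total count 15) and scaling was by TMM. The quasi-likelihood F-test was two-sided, and p-values were adjusted by Benjamini-Hochberg over the 15937 genes tested (threshold 0.05). The SE of a log2 fold change was its size over the square root of F. The biological coefficient of variation was 0.549. CPM were computed on TMM-scaled library sizes, log2 CPM used a prior count of 2, and RPKM used the union of GENCODE M21 exons (45229 of 46078 identifiers found). The floor was 3 counts per library. No pair of libraries of one fraction was a copy, and the labels do not state that libraries came from separate mice, so the p-values measure the spread between these libraries.

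The members and the gene lists (all 253 listed symbols matched a gene) were chosen with earlier results of these data known. All members were named. From each list, up to 4 genes were named, those with the largest absolute log2 fold change among genes that passed the test without overlap of the fractions at a mean log2 CPM of 3 or above. A listed gene that this rule names is not reported here. Alternatives changed the scaling, filter, test, robustness, pairing and libraries, with DESeq2 1.42.0 and limma 3.58.1. The edgeR step was first tested on simulated data. Plots were drawn with matplotlib.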

Additional observations from a re-analysis of the deposited data

Results flagged for a closer look

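In 20 groups of values (10 genes in each of the fractions), 1 value stood apart from the others by Dixon's criterion, which chance meets in about 1 group of 20. The log2 CPM of Egr1 was 12.76 in Sca-1+ library 19, on 178500 counts, and lay between 11.24 and 11.47 in the other Sca-1+ libraries. The gap to the nearest of these was 0.844 of the whole range. Without library 19, the log2 fold change of Egr1 was 2.11 (adjusted p = 0.0014 in edgeR) against 2.60 with it.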

How the results depend on the processing

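The count of 10 members higher in the Sca-1+ fraction and 0 lower held with DESeq2 size factors, upper-quartile or no scaling factors, no filter, DESeq2, limma voom, robust estimates and without each library in turn. Scaling to the general endothelial genes gave 0 higher and 10 lower, and 14605 genes called in all, against 7137. Its log2 fold changes were -1.64 for Fos, -1.72 for Fosb, -3.04 for Jun, -2.82 for Junb, -3.59 for Jund, -2.24 for Egr1, -1.49 for Atf3, -2.003 for Ier2, -2.23 for Ier3 and -1.77 for Dusp1. Of the listed genes called higher with TMM it called lower Fosl2 (-1.22), Klf4 (-0.99), Dusp6 (-2.26), Dusp8 (-1.69), Elk3 (-1.97), Mapk11 (-1.45), Dnajb1 (-2.60), Trib3 (-3.07), Xbp1 (-3.51) and Hspa5 (-3.40). It gave no call for Irf1 (-0.55), Nfkbiz (-0.38), Plk3 (-0.41), Hspa1a (-0.050) and Hspa1b (-0.69), whose sign changed, nor for Fosl1, Id1, Ier5l, Plk2, Hspb1, Icam1, Hbegf and Cxcl1, whose sign did not. By construction it sets the endothelial genes to a like level in every library. With library size only, 4158 genes were higher and 2431 lower, against 3721 and 3416 with TMM. Without each library in turn, 5957 to 6969 genes were called.

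Deviations of libraries with consecutive end numbers correlated with r of 0.147 (7 and 8), 0.148 (13 and 14) and 0.042 (15 and 16). No other pairs were examined for reference, so these values cannot decide whether the libraries are paired. The main test used no block. The titles of 15 and 16 also share a further number, and those of 13, 14 and 22 the word CD452, and the labels say of neither that it marks a mouse or a batch. A replicate block of these numbers in 6 libraries called 4340 genes, against 5360 in the same libraries without the block, and left 10 members higher and 0 lower. The call of Trib3 was lost with the block (adjusted p = 0.11 in edgeR). The cause was not tested.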
